A study of Mus musculus with 2 samples.

Results

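The 10 granule genes described here are S100a8, S100a9, Mpo, Elane, Prtn3, Ngp, Camp, Ltf, Ctsg and Cpa3, picked by name as products of neutrophil and mast cell granules. All 10 had a row in both gene tables, which hold 43346 Ensembl genes. The tissue was whole stomach of B6NCrl mouse embryos at 16.5 days, healthy, with male and female embryos pooled. Total RNA was sequenced from 2 pools, called replicate 1 and replicate 2 as in the labels. The labels give 41 embryos for the pool of replicate 2 and no number for that of replicate 1. Both pools form 1 group, so no treatment or genotype was compared, and differences between them are differences between 2 libraries with no replicate check.

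Neutrophils carry their antimicrobial proteins in granules that are filled in turn as the cell matures. Azurophil (primary) granules hold myeloperoxidase and the serine proteases, specific (secondary) granules hold lactoferrin and cathelicidin-type proteins, and the cytosol is rich in the S100a8 and S100a9 subunits of calprotectin. The granule genes are transcribed mainly in bone marrow or fetal haematopoietic precursors, and some transcripts fade as the cell matures. Mast cells store carboxypeptidase A3, chymases and tryptases with histamine. Some of these products are not particular to blood cells: squamous epithelium also makes S100a8 and S100a9, and glandular epithelia make lactoferrin.

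The total of expected counts (the authors' estimated reads per gene) was 44567153 in replicate 1 and 25677702 in replicate 2. Spike-in RNA took 3.08% and 2.05% of these. Levels are given in TPM (relative transcript abundance, corrected for length, with spike-ins in the total) and can be compared between genes. Epithelial genes of both stomach regions were present, with 19 of 19 squamous genes and 12 of 12 glandular and general epithelial genes at 1 TPM or more in both libraries. In whole tissue, fewer cells of a type and less RNA per cell cannot be told apart.

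Granule genes of both cell types were present. At 1 TPM or more in both libraries stood 9 of 10 members, against 35.5% of all genes in the tables; Ctsg was the exception. Mean levels spanned 302-fold, from 323 TPM for S100a8 to 1.07 TPM for Ctsg. The calprotectin pair held 77.6% of the summed TPM of the 10 members in replicate 1 and 71.2% in replicate 2, and all 8 other members together reached 167 and 155 TPM.

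**Figure D1:**
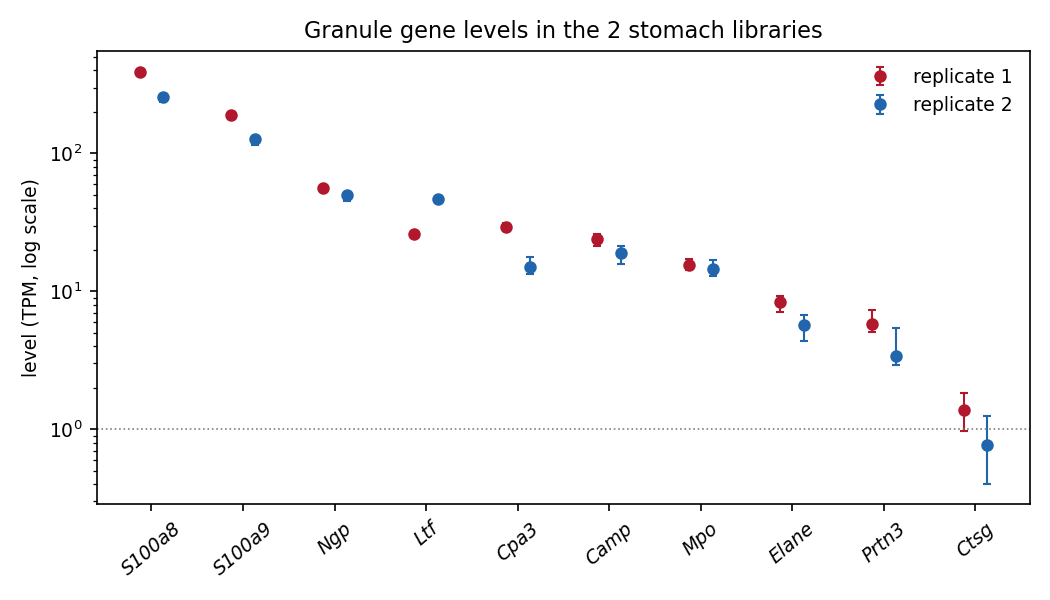
Level of each member (TPM, log axis) in replicate 1 (red, left) and replicate 2 (blue, right), with the authors' interval for each value; the dotted line is 1 TPM. S100a8 and S100a9 lie above 100 TPM in both libraries, Ctsg crosses the line, and Ltf is the member that is lower in replicate 1.

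S100a8 and S100a9 encode small calcium-binding proteins that pair to form calprotectin, which binds zinc and manganese away from microbes. S100a8 (ENSMUSG00000056054.8; chromosome 3, 90668978 to 90670035, plus strand) stood at 389 TPM in replicate 1 and 258 TPM in replicate 2, a mean of 323 ± 92.6 TPM (SD, n = 2). These values rest on 3495 and 1296 expected counts. S100a8 ranked 462nd of the 15372 genes detected, above 97.0% of them. S100a9 (ENSMUSG00000056071.8; chromosome 3, 90692632 to 90695721, minus strand) stood at 190.01 and 127 TPM, a mean of 158 ± 44.7. Both subunit genes were higher in replicate 1, and the authors' intervals for the 2 libraries did not meet, 369 to 394 against 235 to 263 TPM for S100a8 and 179 to 194 against 115 to 131 TPM for S100a9. The genes lie 22596 bases apart on opposite strands, with no annotated protein-coding gene between them.

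The 2 subunit genes kept nearly the same proportion in both pools. S100a8 had 2.05 times the TPM of S100a9 in replicate 1 and 2.03 times in replicate 2. On the log2(TPM + 0.1) scale the difference was 1.03 in replicate 1 and 1.02 in replicate 2, a mean of 1.03 ± 0.01 (SD, n = 2). This within-library proportion does not depend on how the libraries are scaled to each other. The 250 bases before the RefSeq start of each gene (GRCm38.p6) are shown because the pair moved together. They come from chr3:90668821-90669070 for S100a8 (plus strand) and chr3:90695722-90695971 for S100a9 (minus strand), read 5′ to 3′. Capitals mark matches to the motif letters named further down.
S100a8: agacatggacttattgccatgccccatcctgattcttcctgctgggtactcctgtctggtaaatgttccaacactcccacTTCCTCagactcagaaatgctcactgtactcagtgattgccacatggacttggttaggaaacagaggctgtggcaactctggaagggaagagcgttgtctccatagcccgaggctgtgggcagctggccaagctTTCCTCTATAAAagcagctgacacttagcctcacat
S100a9: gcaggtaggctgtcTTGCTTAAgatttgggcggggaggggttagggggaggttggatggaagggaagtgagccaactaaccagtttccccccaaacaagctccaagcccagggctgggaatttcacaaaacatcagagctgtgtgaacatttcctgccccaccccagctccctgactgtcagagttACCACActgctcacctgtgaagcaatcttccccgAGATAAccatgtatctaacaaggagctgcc
S100a8 has the letters of a TATA box 30 to 25 bases before its start and PU.1/ETS letters at 36 to 31 and at 170 to 165. In the S100a9 stretch, C/EBP letters lie 236 to 229, RUNX letters 64 to 59 and GATA letters 30 to 25 bases before the start.

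Squamous epithelium is another known source of calprotectin, so its listed genes are given beside the pair. All 19 of 19 squamous list genes had lower values in replicate 1, 18 of them past an exact binomial test (described with the ratios below), which called 17.2% of all genes lower. The list summed to 6644 TPM in replicate 1 and 11015 TPM in replicate 2. Krt4, a keratin gene of stratified mucosa, stood at 1787 TPM in replicate 1 and 3252 TPM in replicate 2, and its partner Krt13 at 1505 and 2399 TPM. The differentiation genes Krtdap and Sprr1a stood at 620 and 951 TPM and at 377 and 789 TPM, and the lowest of the list, Ivl, at 1.07 and 1.66. Trp63, the master regulator of stratified epithelium, stood at 34.4 and 45.5 TPM. S100a8 therefore had 0.217 times the TPM of Krt4 in replicate 1 and 0.0792 times in replicate 2. Against Lyz2, the lysozyme gene of neutrophils and macrophages, S100a8 had 1.39 times the TPM in replicate 1 and 1.37 times in replicate 2. Which cells supplied the S100a8 and S100a9 transcripts was not tested.

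Most other S100 genes had lower values in replicate 1. Of the 15 listed, 13 were detected and 13 passed the low-count filter, of which 4 were higher and 9 lower. The binomial test called 1 higher (S100g) and 7 lower, beside 14.6% and 17.2% of all genes tested. With spike-in scaling 0 of the 13 were above 0, beside 4.63% of all genes tested. S100a11 led with 1705 TPM in replicate 1 and 1961 TPM in replicate 2, followed by S100a10 (489 and 482), S100a6 (383 and 422) and S100a16 (330 and 409). S100z was lowest, at 0.16 and 0.29 TPM. S100a7a, named after its values were seen, stood at 8.83 and 28.8 TPM, so that S100a8 had 44.0 times its TPM in replicate 1 and 8.96 times in replicate 2. Genes for proteins that bind calprotectin were all detected: Bsg stood at 843 and 824 TPM, Cd36 at 25.9 and 25.2, the pattern-recognition receptor gene Tlr4 at 2.33 and 2.99, and Ager at 2.21 and 2.54. The list held 2 higher and 2 lower genes. Of these Bsg was called higher and Tlr4 lower, beside 14.6% and 17.2% of all genes tested. The log2 ratio of Bsg was only 0.07, and -0.51 with spike-in scaling.

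The azurophil granule genes were the lowest class, with a median of 7.08 TPM in replicate 1 and 4.55 TPM in replicate 2. Mpo (ENSMUSG00000009350.9; chromosome 11, 87793581 to 87804413), which encodes the myeloperoxidase that makes hypochlorous acid, led the class at 15.5 and 14.6 TPM, a mean of 15.1 ± 0.608 (SD, n = 2). It had the smallest spread of the members, 4.04% of its mean. The neutrophil elastase gene Elane (ENSMUSG00000020125.6; chromosome 10, 79886247 to 79888215) stood at 8.33 and 5.68 TPM from 210 and 80 expected counts. Prtn3 (ENSMUSG00000057729.8; chromosome 10, 79874476 to 79883174), the proteinase 3 gene, stood at 5.83 and 3.42 TPM from 145.13 and 46.08. Ctsg (ENSMUSG00000040314.1; chromosome 14, 56099881 to 56102574), the cathepsin G gene, stood at 1.37 and 0.77 TPM. Its 38 and 12 expected counts have 95% exact Poisson intervals of 26.9 to 52.2 and 6.20 to 20.96, which cover counting error only. All 4 azurophil genes had ratios above the median gene, Mpo turning below 0 with spike-in scaling, and the intervals of Mpo, Prtn3 and Ctsg met between the libraries.

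Mpo had 1.86 times the TPM of Elane in replicate 1 and 2.57 times in replicate 2. Elane had 1.43 times the TPM of Prtn3 in replicate 1 and 1.66 times in replicate 2. Elane and Prtn3 are neighbours on the same strand, 3072 bases apart with no protein-coding gene between them. Prtn3 overlaps Plppr3, a gene on the opposite strand at 23.2 and 24.4 TPM, over 159 bases. Since the sources used here do not say whether strand was used in counting, reads in that stretch cannot be told apart. Mpo overlaps the antisense gene Gm11505, which stood at 0 and 0.13 TPM. The stretches before Elane (chr10:79886062-79886311, plus strand) and Prtn3 (chr10:79879417-79879666, plus strand) are shown side by side because the protease genes are neighbours. The RefSeq start of Prtn3 lies inside its longer GENCODE span given above. Both stretches hold the PU.1/ETS letters, 85 to 80 and 95 to 90 bases before the start.
Elane: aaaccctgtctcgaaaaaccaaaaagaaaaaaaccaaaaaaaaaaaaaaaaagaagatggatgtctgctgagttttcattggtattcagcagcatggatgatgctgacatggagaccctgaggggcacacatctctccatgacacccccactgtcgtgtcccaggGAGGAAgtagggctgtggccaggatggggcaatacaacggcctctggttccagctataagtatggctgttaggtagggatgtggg
Prtn3: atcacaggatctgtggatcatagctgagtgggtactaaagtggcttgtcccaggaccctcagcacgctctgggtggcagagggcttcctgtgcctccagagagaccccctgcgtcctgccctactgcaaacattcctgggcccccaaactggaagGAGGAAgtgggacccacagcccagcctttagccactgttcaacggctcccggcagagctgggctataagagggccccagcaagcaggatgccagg

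Specific granule genes stood above the azurophil genes in both pools. Ngp (ENSMUSG00000032484.7; chromosome 9, 110419747 to 110423012), which encodes neutrophilic granule protein, was at 56.7 TPM in replicate 1 and 49.7 TPM in replicate 2, a mean of 53.2 ± 4.89 (SD, n = 2). Camp (ENSMUSG00000038357.9; chromosome 9, 109847379 to 109849617), the cathelicidin gene, was at 24.0 and 19.1 TPM, a mean of 21.5 ± 3.44. Ngp had 2.36 times the TPM of Camp in replicate 1 and 2.60 times in replicate 2. Ltf (ENSMUSG00000032496.3; chromosome 9, 111019271 to 111042767), which encodes the iron-binding protein lactoferrin, departed from them. It stood at 26.1 TPM in replicate 1 and 47.0 TPM in replicate 2, with authors' intervals of 24.5 to 26.7 and 43.6 to 47.5. Ltf was thus the only member of the 10 with a lower value in replicate 1. Its expected counts were nearly equal, 2114 and 2133, although replicate 1 was sequenced more deeply.

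The share of Ltf among specific granule transcripts therefore differed between the pools. Ngp had 2.17 times the TPM of Ltf in replicate 1 and 1.06 times in replicate 2. Relative to the keratin gene Krt4, Ltf had 0.0146 times the TPM in replicate 1 and 0.0145 times in replicate 2. Relative to Krt13 it had 0.0173 and 0.0196 times. The proportion was less even relative to Krt5, at 0.0693 and 0.0942, and to Trp63, at 0.758 and 1.03. Relative to Lyz2 the values were 0.0932 and 0.249. The 12 glandular and general epithelial genes were all lower in replicate 1. The binomial test called all 12 lower, beside 17.2% of all genes tested. This list was added after values were seen. Its highest genes were the keratin genes Krt8, with 1017 TPM in replicate 1 and 1302 TPM in replicate 2, Krt19 (927 and 1272) and Krt18 (458 and 524) and the surface antigen gene Psca (437 and 1059). Its lowest, Muc5ac, had 2.00 and 2.68 TPM. That list summed to 3808 TPM in replicate 1 and 5517 TPM in replicate 2, and its median log2 ratio was -0.43. The part of epithelial cells in the Ltf level was not tested. The stretch before Ltf (chr9:111019042-111019291, plus strand) is shown because this gene went against the others. It holds C/EBP letters 75 to 68, PU.1/ETS letters 157 to 152 and GATA letters 32 to 27 bases before the start.
Ltf: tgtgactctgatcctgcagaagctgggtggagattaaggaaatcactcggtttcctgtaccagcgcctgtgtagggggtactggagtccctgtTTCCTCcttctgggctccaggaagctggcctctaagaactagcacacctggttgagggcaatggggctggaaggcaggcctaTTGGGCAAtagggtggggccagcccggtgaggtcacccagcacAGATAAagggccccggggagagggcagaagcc

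Cpa3, the mast cell member, had the highest ratio of replicate 1 to replicate 2. Cpa3 (ENSMUSG00000001865.2; chromosome 3, 20215620 to 20242181), which encodes the secretory granule carboxypeptidase of mast cells, stood at 29.5 TPM in replicate 1 and 14.98 TPM in replicate 2. Its mean was 22.3 ± 10.3 (SD, n = 2), a spread of 46.3% of the mean, from 1224 and 347 expected counts. The authors' intervals, 27.6 to 31.3 and 13.3 to 17.7 TPM, did not meet. The stretch before Cpa3 (chr3:20242182-20242431, minus strand) is shown because Cpa3 is the mast cell gene of the set. GATA letters lie 46 to 41, TATA box letters 31 to 26 and RUNX letters 73 to 68 bases before its start. A further TATA box match on the opposite strand lies at 242 to 237.
Cpa3: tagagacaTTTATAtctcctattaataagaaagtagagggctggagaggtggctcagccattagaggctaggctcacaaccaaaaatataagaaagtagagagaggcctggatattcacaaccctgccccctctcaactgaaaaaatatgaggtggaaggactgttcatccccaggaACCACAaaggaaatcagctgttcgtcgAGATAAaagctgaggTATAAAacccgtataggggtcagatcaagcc

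Among other mast cell and basophil proteases, the binomial test also called Cma1, Tpsb2 and Mcpt8 higher in replicate 1. Mcpt4 was not called, nor were Mcpt2 and Tpsab1, which are outside the naming rule. Of 24 further mast cell and basophil genes 14 were detected, and of the 18 past the filter 12 were higher and 6 lower in replicate 1. The exact binomial test called 6 higher and 2 lower, beside 14.6% and 17.2% of all genes tested, so the count of lower genes was not above that of all genes. With spike-in scaling 5 of the 18 were above 0, beside 4.63% of all genes tested. The list summed to 248 TPM in replicate 1 and 224 TPM in replicate 2. Cma1, the chymase gene, stood at 27.0 and 15.9 TPM, a log2 ratio of 0.79 (0.22 with spike-in scaling). The tryptase gene Tpsb2 stood at 15.4 and 11.2 TPM, a log2 ratio of 0.49 (-0.08 with spike-in scaling), and the chymase gene Mcpt4 at 1.90 and 1.44 TPM. Cpa3 had 1.10 times the TPM of Cma1 in replicate 1 and 0.942 times in replicate 2. The subunit genes of the IgE receptor were uneven: Fcer1g, which other leukocytes also use, stood at 62.5 and 57.0 TPM, Ms4a2 at 0.88 and 0.28, and Fcer1a at 0.22 and 0.26.

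The 2 genes of the list called lower in replicate 1 were Kit and Rab27b. Kit, the stem cell factor receptor gene that interstitial cells of Cajal also express, stood at 33.5 TPM in replicate 1 and 39.9 TPM in replicate 2. Rab27b, a vesicle transport gene not particular to mast cells, stood at 36.0 and 46.4 TPM. Hdc, the histidine decarboxylase gene, at 21.8 and 15.4 TPM, and Srgn, the serglycin gene, at 21.4 and 13.3 TPM, are likewise not particular to mast cells and were called higher. Mcpt9 had no counts in either library, which allows up to 3 counts in each. The basophil protease gene Mcpt8, outside the naming rule, stood at 3.40 and 1.70 TPM. Ctsg belongs to the protease gene cluster of chromosome 14 that also holds granzyme genes; of 7 listed, Gzmb stood at 1.58 and 1.37 TPM and the other 6 had no counts.

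**Figure D2:**
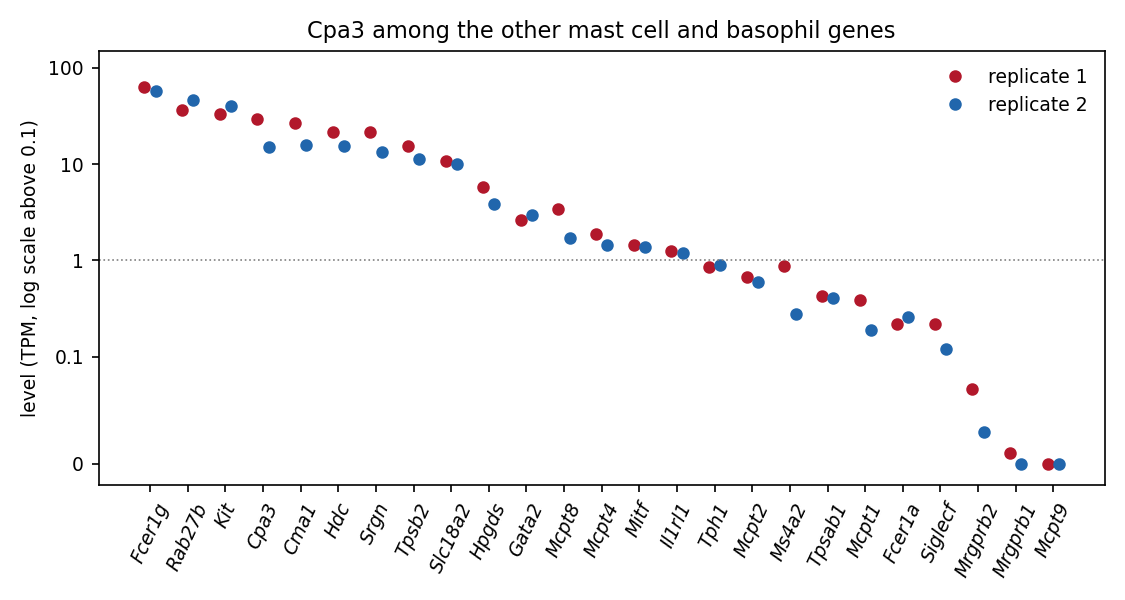
Level (TPM, log axis above 0.1 and linear below) of Cpa3 and the 24 further mast cell and basophil genes in replicate 1 (red, left) and replicate 2 (blue, right), ordered by mean. Cpa3 and Cma1 lie close together and share the higher value in replicate 1, while Kit and Rab27b are lower there; the dotted line is 1 TPM.

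Further neutrophil genes of granules and cytosol were mostly detected. Of 19 further granule and cytosol genes 17 were detected, with a median of 10.3 TPM in replicate 1 and 7.77 TPM in replicate 2. Anxa1, an annexin gene also active in many epithelia, led at 1034 and 1453 TPM, followed by Lyz2 at 279 and 189, Pglyrp1, which encodes a peptidoglycan recognition protein, at 96.6 and 145, and Serpinb1a, a protease inhibitor gene, at 69.6 and 69.5. BC100530, a stefin gene outside the naming rule, stood at 72.2 and 55.2. Bpi was lowest, at 0 and 0.03 TPM. Of the 18 past the filter 13 were higher and 5 lower in replicate 1, and the binomial test called 8 higher and 3 lower, beside 14.6% and 17.2% of all genes tested. With spike-in scaling 4 of the 18 were above 0, beside 4.63% of all genes tested. The genes called lower were Anxa1, Pglyrp1 and Cd177. The list sum was 1658 TPM in replicate 1 and 1995 TPM in replicate 2, most of it Anxa1.

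Surface receptors and regulators of neutrophils had a median of 1.76 TPM in replicate 1 and 1.20 TPM in replicate 2, with 9 of 15 detected. Cebpd led at 16.1 and 14.2 TPM, followed by the integrin genes Itgb2 at 6.75 and 5.60 and Itgam at 4.22 and 4.26, and by Spi1, which encodes PU.1, at 5.41 and 4.26. Ly6g, the defining surface marker of mouse neutrophils, stood at 1.35 and 1.20 TPM from 17 and 8 expected counts. Csf3r, the G-CSF receptor gene, stood at 1.66 and 1.12 TPM. Cebpe, which drives specific granule genes, stood at 0.72 and 0.97 TPM, and Gfi1, a repressor needed for neutrophil differentiation, at 0.97 and 0.55. Trem1 was lowest, at 0.39 and 0.08. Of 14 past the filter 11 were higher and 3 lower in replicate 1, and the exact binomial test called Spi1 higher. With spike-in scaling 3 of the 14 were above 0, beside 4.63% of all genes tested.

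Of 5 differences between granule classes, all but Cpa3 against the specific class kept their sign and exceeded the SD between the pools. Class medians were compared on the log2(TPM + 0.1) scale within each library. Calprotectin exceeded the azurophil class by 5.26 in replicate 1 and 5.33 in replicate 2, a mean of 5.30 ± 0.04 (SD, n = 2). It exceeded the specific class by 3.38 and 1.94, a mean of 2.66 ± 1.02. The specific class exceeded the azurophil class by 1.89 and 3.38, a mean of 2.64 ± 1.06. Cpa3 lay above the azurophil median by 2.07 and 1.74, a mean of 1.90 ± 0.23. Cpa3 minus the specific median was 0.18 in replicate 1 and -1.64 in replicate 2, so the sign turned. The specific median was the Ltf level in both libraries, 26.1 and 47.0 TPM, so differences from this class follow Ltf. With 2 libraries an exact sign-flip test cannot give a two-sided p below 0.5, so none of these differences can pass it at 0.05.

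In the order of mean levels, 6 of 9 neighbouring pairs differed with 1 sign and by more than the SD. The order ran S100a8, S100a9, Ngp, Ltf, Cpa3, Camp, Mpo, Elane, Prtn3 and Ctsg. The 3 pairs within the spread were Ngp and Ltf, Ltf and Cpa3, and Cpa3 and Camp. Ltf minus Cpa3 was -0.18 on the log2 scale in replicate 1 and 1.64 in replicate 2. Prtn3 minus Ctsg was 2.01 and 2.02.

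Between the pools, 9 of 10 members were higher in replicate 1, beside 50.4% of the 17763 genes that were tested after leaving out low counts. The ratios are log2 values of replicate 1 over replicate 2 from expected counts, scaled so that the median gene is near 0 (TMM). The median over the 10 members was 0.60, beside 0.00 over all genes tested; all 10 members passed the filter. Cpa3 had 1.01 (95% exact binomial interval for counting error 0.84 to 1.19), S100a8 0.63 (0.54 to 0.72), S100a9 0.62 (0.51 to 0.73) and Ltf -0.82 (-0.90 to -0.73). Elane had 0.58 (0.21 to 0.98), Prtn3 0.83 (0.37 to 1.36), Camp 0.36 (0.09 to 0.64) and Ngp 0.22 (0.11 to 0.34). For Ctsg, at 0.79 (-0.11 to 1.93), and Mpo, at 0.14 (-0.02 to 0.30), the interval included 0.

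Cpa3 alone passed 2-fold, at 2.02-fold; over all genes tested, 1.24% lay above that bound. No member was more than 2-fold lower, where 2.34% of genes were. At 1.5-fold, 5 members were higher (4.13% of genes) and 1 was lower (5.15% of genes). The exact binomial test of the rounded counts, two-sided and adjusted over all 17763 genes by the Benjamini-Hochberg method, called 7 members higher, beside 14.6% of genes. It called 1 member lower, Ltf, beside 17.2% of genes. Adjusted p in this exact test was 1.57e-41 for S100a8, 6.49e-33 for Cpa3, 8.27e-73 for Ltf and 0.00804 for Elane. It was 0.0249 for Camp, 0.177 for Ctsg and 0.179 for Mpo. The test compares the reads of these 2 libraries, takes amplified reads as independent and covers counting error only.

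**Figure D3:**
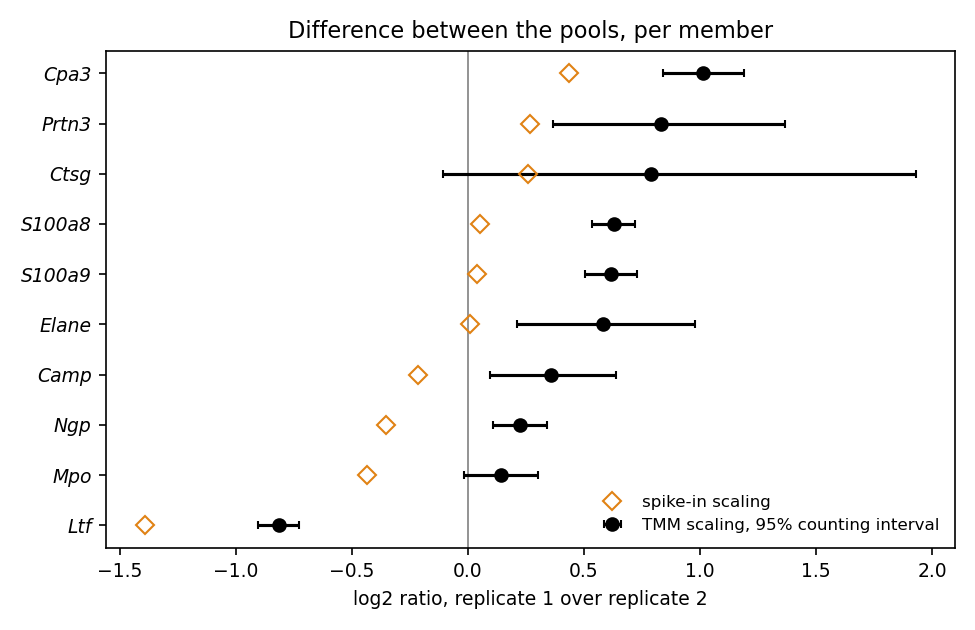
Log2 ratio of replicate 1 over replicate 2 for each member with TMM scaling (black, with the 95% exact binomial interval for counting error) and with spike-in scaling (orange diamonds). Cpa3 is highest and Ltf lowest under both scalings, and Mpo, Ngp and Camp turn below 0 with spike-ins.

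Directions depended on the scaling for part of the set. Scaling by spike-in totals moved the median gene by -0.57, and 4.63% of genes then stayed above 0. Of the members 6 stayed above 0, Cpa3 at 0.44, Prtn3 at 0.27, Ctsg at 0.26, S100a8 at 0.05, S100a9 at 0.04 and Elane at 0.01. Mpo at -0.44, Ngp at -0.35 and Camp at -0.21 turned below 0, and Ltf stood at -1.39. The test then called 1 member higher, Cpa3 (0.985% of genes), and 3 lower (80.8% of genes). Beyond 2-fold stood 0 members higher (0.625% of genes) and 1 lower (7.41% of genes). The ratios above are therefore relative to the median gene, and the proportions between members within a library are free of this choice.

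Of the macrophage list, C1qa alone was called between the pools, as higher in replicate 1. The macrophage list, with 10 of 12 detected, had a median log2 ratio of 0.08. Csf1r and Adgre1, the macrophage markers, stood at 22.8 and 24.5 TPM and at 7.46 and 7.39 TPM, C1qb at 64.3 and 60.9, C1qa at 62.1 and 50.8, C1qc at 23.7 and 23.9 and Timd4, the lowest, at 0.53 and 0.39. Median ratios were 0.26 for both further neutrophil lists and 0.17 for the further mast cell list, against -0.57 for squamous epithelium. S100a8 had 17.1 times the TPM of Csf1r in replicate 1 and 10.5 times in replicate 2. Mpo had 2.08 and 1.98 times the TPM of Adgre1.

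**Figure D4:**
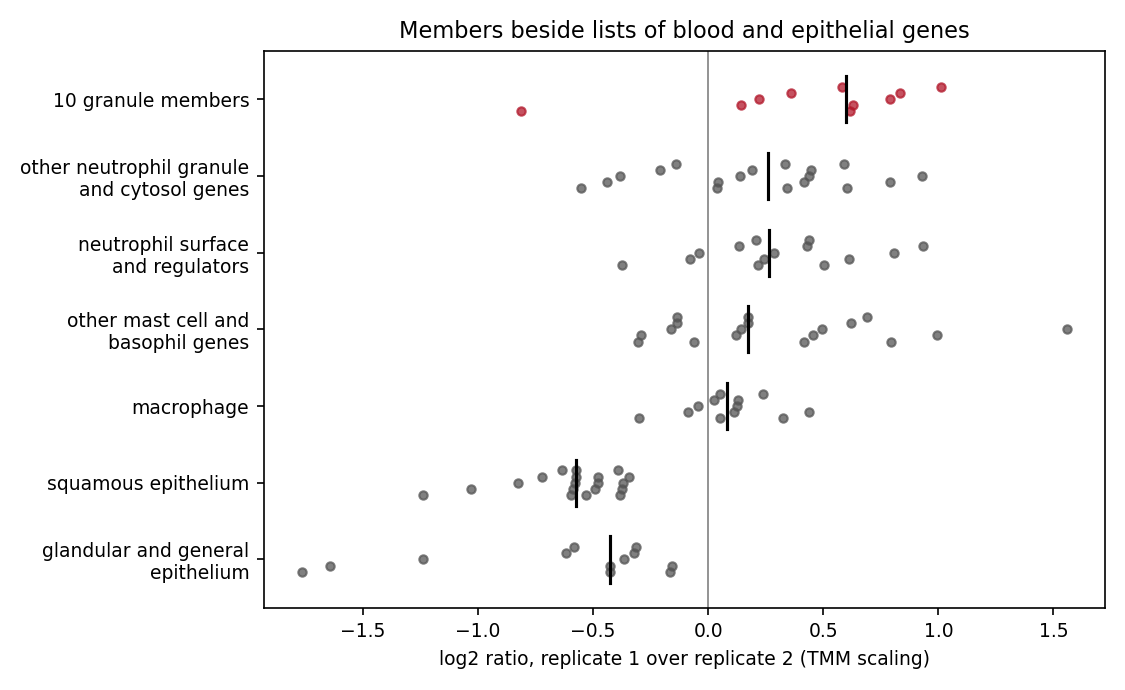
Log2 ratio of replicate 1 over replicate 2 (TMM scaling) for the 10 members (red) and for genes past the low-count filter in 6 lists (grey), 1 point per gene, with list medians as black bars; vertical offsets have no meaning. The member median is 0.60 and that of squamous epithelium -0.57, and Ltf at -0.82 is the single red point left of 0.

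Transcript tables gave 1 transcript for 6 members and several for 4, whose leading transcript was the same in both libraries. S100a9-201 carried 84.5% of S100a9 TPM in replicate 1 and 78.7% in replicate 2, and S100a9-202 the rest. Mpo-203 carried 76.4% and 79.2%. Cpa3-201 carried 100% in both. Prtn3-201, which is protein-coding, carried 47.0% and 50.9%, and the retained-intron transcript Prtn3-204 carried 33.1% and 30.1%. Reads that several transcripts could have given were divided between them by the authors' model, so the shares are estimates.

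The motif letters marked above were searched on both strands in the 250 bases before the RefSeq start of all 10 members and of 32851 promoters. The letters TTGCNNAA (C/EBP) occurred in 3 of 10 members and 9.56% of promoters, TGTGGT (RUNX) in 3 members and 4614 promoters, and GAGGAA (PU.1/ETS) in 6 and 23.3%. The GATA factor letters AGATAA occurred in 3 members and 9.99% of promoters. The TATA box letters TATAAA likewise occurred in 3 members and in 12.4% of promoters. In Camp none of them occurred. A match of letters is a description of the sequence, and binding was not measured.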

How the data were processed

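For each library the authors deposited a gene table and a transcript table with expected counts, which are estimated reads and need not be whole. TPM and FPKM were deposited by the authors beside them, with posterior mean TPM. The bounds around each TPM were taken as a score deposited by the authors, since their level is not given. Percent shares per transcript were deposited by the authors, and shares here were recomputed from TPM. The deposited text files name mm10 and annotation M4. Aligner, quantifier and strand use: not given in the sources used here. Per the labels, each library took 10 ng of RNA over 200 nt, with ERCC spike-ins.

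GENCODE M21 (GRCm38) gave symbols for 42462 of 43346 genes and the positions. RefSeq (GRCm38.p6) gave promoters for 10 of 10 members. Expected counts were rounded, filtered with filterByExpr and scaled by TMM (edgeR 4.0.16, R 4.3.3; factors 1.01 and 0.992), and ratios used a prior count of 2. A single group allows no quasi-likelihood test. Alternatives used DESeq2 1.42.0 size factors, library totals or spike-in totals. Spike-ins and 26248 features with numeric identifiers (0.000168% and 0.000105% of counts) were kept out of library sizes. A count of 0 allows up to 3 counts. Python 3.11.15, scipy 1.17.1 and matplotlib 3.10.9 did the rest. The ratio step and the binomial test were tested on simulated data that held counting error only. The test called 0.022% of the unchanged genes there. Variation between pools was not simulated, so this says nothing about calls that such variation gives.

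The members and lists were chosen with earlier results of these data known, and 1 epithelial list was added after values were seen. Named were all members, the 4 highest genes and the lowest of each list, and set markers; others are said to be outside the rule or were the few called by a test. With 1 ratio per gene, no likeness of pattern was ranked. Every p-value compares the reads of these 2 libraries only.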

Additional observations from a re-analysis of the deposited data

How the results depend on the processing

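The count of detected members was 9 and ranged over 8 to 10 across thresholds, units and single libraries, within 1.5 times. With spike-in scaling the median log2 ratio of the members was 0.0256, beside 0.60, while the count more than 2-fold higher was 0 and more than 2-fold lower 1. The binomial test then called 1 higher and 3 lower, and the ratios of Mpo, Ngp and Camp turned to -0.44, -0.35 and -0.21. A threshold of 1.5-fold gave 5 members higher and 1 lower, by construction. Size factors of DESeq2, library totals, a smaller prior count and no filter kept each count within 1.5 times.

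Calprotectin minus azurophil, 5.30, became 5.08 with a pseudocount of 1, 5.18 with posterior mean TPM and 5.52 with means in place of medians. Leaving out each library in turn, Cpa3 minus the specific median ranged from -1.64 to 0.18. The specific median was the Ltf level in both libraries, so this range is that of Cpa3 minus Ltf. Why Ltf differed between the pools was not tested. Depth limits Ctsg most, with 38 and 12 expected counts. Leading transcripts were the same under each alternative share.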

Other observations

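Eosinophil and lymphocyte genes were low. Of 8 eosinophil genes 2 were detected, Prg2 at 1.76 TPM in replicate 1 and 2.05 TPM in replicate 2 and Ear2 at 1.10 and 1.22; Ear1 stood at 0.32 and 0.85, Ear6 at 0.16 and 0.66 and Il5ra was lowest at 0 and 0.04. The 3 eosinophil genes past the filter were all lower in replicate 1, and none was called by the exact binomial test. Of 9 lymphocyte genes 3 were detected, with Cd79b at 2.92 and 2.93 TPM, Nkg7 at 1.67 and 1.94, Cd79a at 1.90 and 1.67, Cd3e at 1.10 and 0.78 and Cd3d lowest at 0.13 and 0.

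All 5 monocyte genes were detected. The chemokine receptor gene Ccr2 stood at 6.89 TPM in replicate 1 and 3.52 TPM in replicate 2, a log2 ratio of 0.95 (0.37 with spike-in scaling), near that of Cpa3. Plac8 stood at 183 and 214 TPM, F13a1 at 31.3 and 32.2, Ms4a6c at 10.0 and 7.74 and Ly6c2 at 7.92 and 5.17.

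The listed liver and spleen mesenchyme genes had ratios above 0 with TMM scaling. All 7 of 7 liver genes had ratios above 0, beside 50.4% of all genes tested, and 6 were called higher, beside 14.6%. With spike-in scaling 0 of 7 stayed above 0, beside 4.63% of all genes tested. Apoa1 stood at 521 and 428 TPM, Afp at 434 and 303, Alb at 181 and 157, Ttr at 77.70 and 77.67 and Hp, the lowest, at 13.8 and 11.2. Hp is also among the further neutrophil granule and cytosol genes and was counted in both lists. Of the spleen mesenchyme list, Tlx1 stood at 2.82 and 0.95 TPM, so below 1 TPM in replicate 2. Its log2 ratio was 1.20 (0.65 with spike-in scaling). Nkx2-5 stood at 3.70 and 1.92 TPM and Tcf21 at 166 and 160.0. Whether tissue of either organ was in the pools was not tested, nor was any part of it in the granule gene ratios.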
